A study of Mus musculus with 22 samples.

Results

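The 46 genes described here either drive the cell division cycle or restrain it, and they were taken by symbol from a count table of 26202 gene symbols from the embryonic mouse trachea. Of these, 43 act in the cycle, from the D-type cyclins to the proteins of the mitotic spindle, and 3 are inhibitors of cyclin-dependent kinases (Cdkn1a, Cdkn1b and Cdkn2c), which were read apart. All 46 passed the filter on low values (at least 1 CPM in over 50% of the libraries of a group) in every comparison. Each library was made from a pool of 5 tracheas. Whole tracheas were taken at embryonic day E11.5 from Wnt5a f/f controls (5 libraries) and from Dermo1Cre; Wnt5a f/f mutants (4 libraries), in which the Cre driver acts in mesenchyme, so that the epithelium keeps its Wnt5a. At E13.5, cells that carried the gamma SMA eGFP reporter were sorted into epithelium (EpCAM-positive), muscle (GFP-positive) and chondroblasts (negative for both, a gate that other cell types can also enter), with 2 control libraries for each population. A further 3 libraries came from chondroblasts of Notum 150/150; gamma SMA eGFP embryos. The E13.5 controls were Bmp4 f/f; gamma SMA eGFP or Notum 300/300; gamma SMA eGFP according to the labels, and which library had which genotype could not be told. Of the sorted populations the labels list 3, 3, 3 and 4 samples, of which 2, 2, 2 and 3 could be matched to a column.

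A dividing cell first makes D-type cyclins, which bind Cdk4 and Cdk6 and release E2F factors from the retinoblastoma protein, and cyclin E with Cdk2 then opens S phase. Mcm helicase subunits loaded by Cdc6 unwind the DNA, and Pcna, Rrm2 and Tyms serve the polymerases and their nucleotide supply. Cyclins A and B with Cdk1, the Aurora and Polo kinases and the anaphase-promoting complex (APC/C) with Cdc20 and Ube2c carry the cell through mitosis, while Cdkn1a, Cdkn1b and Cdkn2c hold the kinases back, and cells that leave the cycle to form muscle are known to switch Cdkn1a on.

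Total counts per library ran from 6880660 (Wnt5a control E) to 21678177 (chondroblast control A). Levels are given as CPM, counts scaled to the library total, after TMM scaling over the 18 libraries. At this depth 3 counts correspond to between 0.138 and 0.436 CPM before that scaling (counting error only). The labelled populations carried their markers: the summed level of the epithelial list was 3265 and 3884 CPM in epithelium against at most 45.4 CPM in muscle, and the smooth muscle list reached 13675 and 10573 CPM in muscle against at most 97.9 CPM in the other sorted cells. Some libraries stood apart. Chondroblast control A held 66100.1 CPM of erythroid transcripts, muscle A held 2478 CPM of skeletal muscle transcripts against 654 CPM in muscle B, and transcripts induced by dissociation summed to 2954 CPM in Wnt5a control B and 3735 CPM in Wnt5a mutant D, against 266 to 528 CPM in the other E11.5 libraries. Of the targeted genes, Wnt5a was at 46.5, 78.6, 87.7 and 127 CPM in its mutants and at 88.4, 162, 84.6, 86.9 and 57.7 CPM in their controls, and Notum was at 34.02, 35.6 and 13.9 CPM in its mutants and at 13.8 and 86.1 CPM in theirs. Both pairs of groups overlapped, so counts over the whole gene did not show either genotype, though within the later date the 3 Notum mutants lay below the lone control, B.

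The members differ in the sequence before their start sites as well as in their role. RefSeq promoter windows of 300 bases on GRCm38.p6 (250 before and 50 after the start, the mm10 assembly the study used) were held for 38 of the 46 members, with none for Ccna2, Ccnd1, Kif20a, Tpx2, Aurkb, Ccne2, Mcm4 and Ccnd2. The windows were searched on both strands for the CCAAT box (CCAAT), the cell cycle homology region known from mitotic genes (TTTGAA) and the E2F site (TTTGGCGC, TTTCCCGC, TTTCGCGC or TTTGCCGC). Of the 19 members with mitotic roles, 17 (89.5%) held a CCAAT box and 14 (73.7%) the cell cycle homology letters, against 41.1% and 20.2% of all 27025 genes with a window. The E2F letters were in 5 of the 10 replication members with a window, in 1 of the 19 mitotic members and in 2.60% of all genes. None of the 3 inhibitors held the cell cycle homology or E2F letters. A match describes letters only and is no evidence that a factor binds there.

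The 250 bases before the start are shown for the mitotic genes Ube2c and Cdk1, the proliferation marker Top2a and the replication gene Mcm5. The comparisons turn on these genes, which are printed 5′ to 3′ on the gene's strand, with the searched letters in capitals.
Ube2c (chr2:164769679-164769928, plus strand): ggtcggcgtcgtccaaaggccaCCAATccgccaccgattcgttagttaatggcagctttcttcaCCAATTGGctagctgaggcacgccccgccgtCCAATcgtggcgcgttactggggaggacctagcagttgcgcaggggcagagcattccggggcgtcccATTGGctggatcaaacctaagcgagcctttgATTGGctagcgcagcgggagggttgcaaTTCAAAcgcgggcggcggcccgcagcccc
Top2a (chr11:99024190-99024439, minus strand): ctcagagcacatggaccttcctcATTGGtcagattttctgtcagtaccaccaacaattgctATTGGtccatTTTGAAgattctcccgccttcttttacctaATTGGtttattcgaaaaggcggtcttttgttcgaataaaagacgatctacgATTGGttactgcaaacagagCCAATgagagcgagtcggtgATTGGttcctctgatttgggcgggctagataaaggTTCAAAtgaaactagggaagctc
Cdk1 (chr10:69352913-69353162, minus strand): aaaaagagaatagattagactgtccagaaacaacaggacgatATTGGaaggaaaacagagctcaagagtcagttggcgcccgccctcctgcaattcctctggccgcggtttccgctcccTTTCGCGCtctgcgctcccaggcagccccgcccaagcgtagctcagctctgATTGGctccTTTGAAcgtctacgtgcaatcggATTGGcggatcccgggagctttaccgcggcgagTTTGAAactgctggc
Mcm5 (chr8:75109259-75109508, plus strand): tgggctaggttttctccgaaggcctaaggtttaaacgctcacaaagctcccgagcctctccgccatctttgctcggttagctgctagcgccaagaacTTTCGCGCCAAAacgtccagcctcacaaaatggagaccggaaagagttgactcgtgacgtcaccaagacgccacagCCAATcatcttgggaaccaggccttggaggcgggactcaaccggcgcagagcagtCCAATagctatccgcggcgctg
In the first 3, which lie on the mitotic side of the cycle, the TTTGAA letters nearest the start began at base -29 (Ube2c), -23 (Top2a) and -15 (Cdk1), with CCAAT boxes farther upstream. Mcm5, a subunit of the replicative helicase, had no such letters and instead had overlapping E2F sites that began at -153 and -149. Cdk1 was the mitotic member that held all 3 kinds of motif.

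The level of the drivers of the cycle was read first over all libraries. As a geometric mean over the 23 mitotic members, the E11.5 control tracheas were at 183 ± 18.5 CPM (SD, n = 5), epithelium at 169 and 152 CPM, muscle at 89.8 and 63.2 CPM, and control chondroblasts at 102 and 77.3 CPM. One epithelial library thus lay inside and the other just under the range of the E11.5 controls (158 to 204 CPM), and both mesenchymal populations lay under all of them. The 11 replication members spread less: 291 ± 32.1 CPM (SD, n = 5) in E11.5 controls, 228 and 224 CPM in epithelium, 167 and 157 CPM in muscle and 200.5 and 194 CPM in chondroblasts. The ratio of mitotic to replication means was 0.744 and 0.681 in epithelium and 0.596 to 0.687 in E11.5 controls, but 0.537 and 0.402 in muscle and 0.508 and 0.400 in chondroblasts. The ratio was thus lower in all 4 mesenchymal control libraries than in epithelium or the E11.5 controls. In bulk RNA, a lower share of dividing cells and less of a transcript in each of them cannot be told apart.

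**Figure D1:**
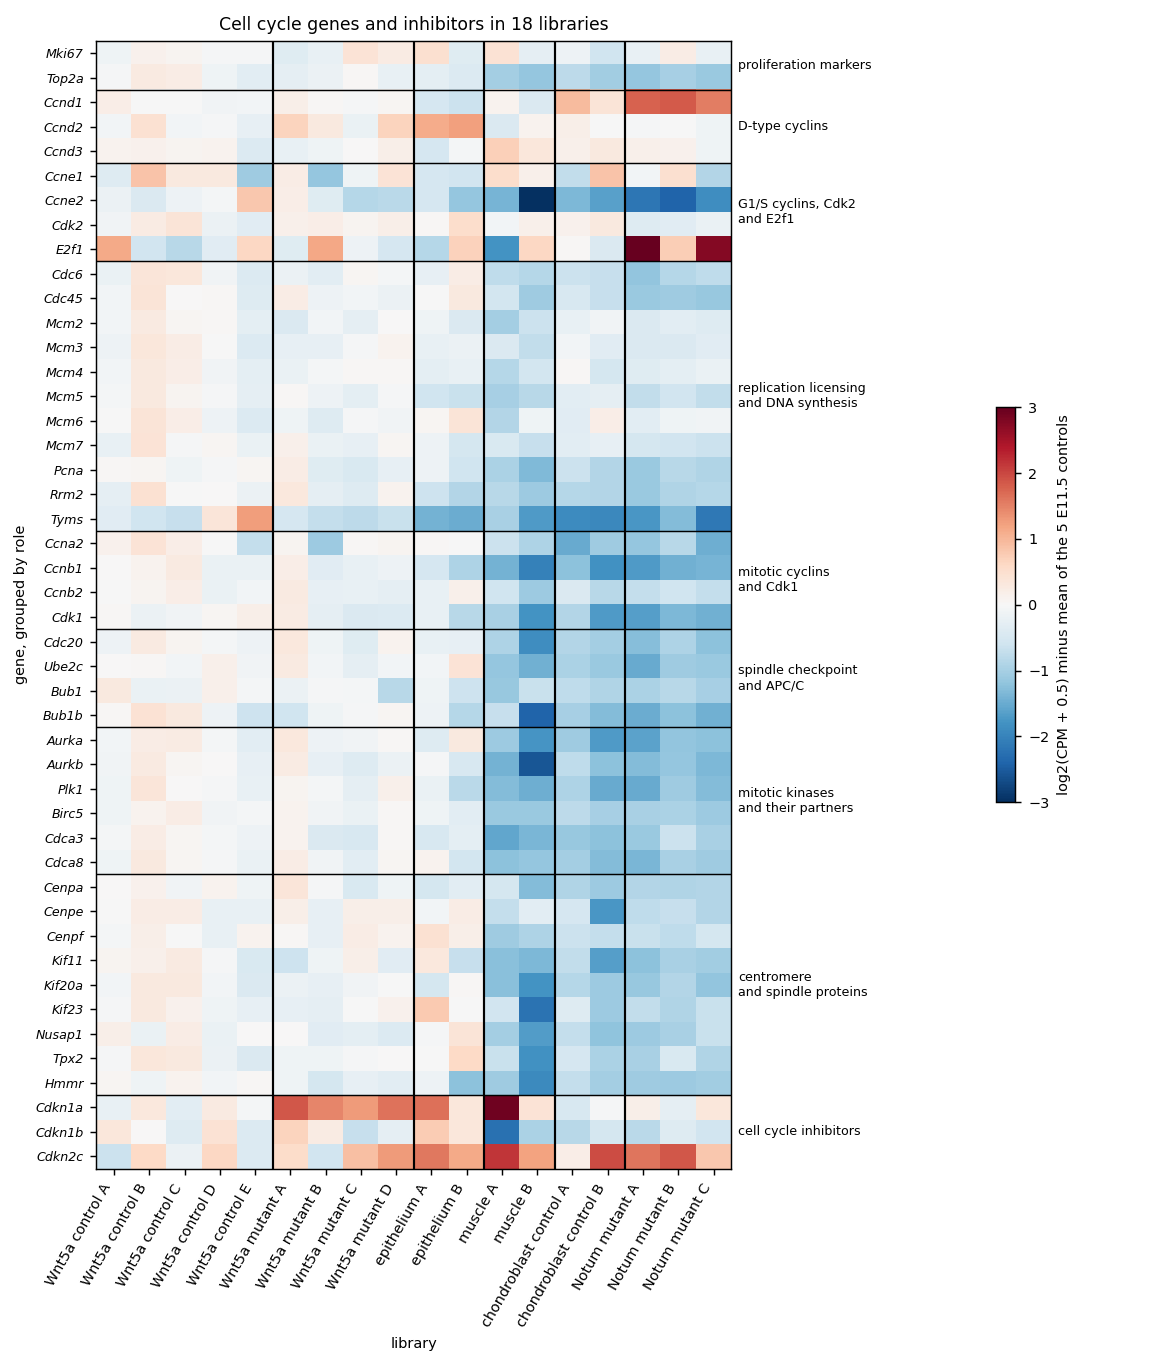
Level of each of the 46 genes (rows, by role) in each of the 18 libraries (columns), as log2(CPM + 0.5) minus the mean of the 5 E11.5 controls, with red higher, blue lower and colours saturating at 3 either way. Muscle and chondroblast columns are mostly blue over the replication and mitotic rows, the epithelium columns are close to white, and Cdkn1a stands out in the Wnt5a mutants and in muscle A.

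**Figure D2:**
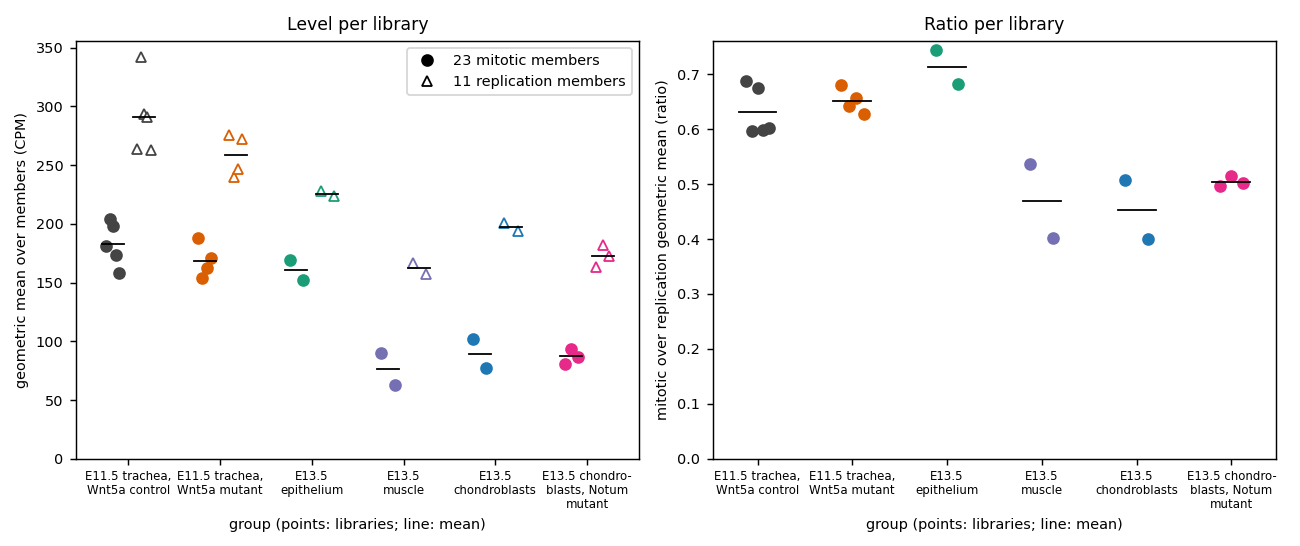
Geometric mean level in CPM of the 23 mitotic members (filled circles) and of the 11 replication members (open triangles), left, and the ratio of both, right, with 1 point per library and a line at each group's mean. Mitotic means are 63.2 to 102 CPM in muscle and control chondroblasts and 152 CPM or more in epithelium and in all E11.5 libraries.

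The sorted E13.5 control cells were then compared with the E11.5 control tracheas, first with the populations given equal weight. Tests were edgeR's quasi-likelihood tests, and adjusted p-values (Benjamini-Hochberg) were taken over all 14971 genes tested. Of the 43 drivers of the cycle, 28 passed an adjusted p under 0.05 as lower at E13.5 and 0 as higher, against 9.9% and 4.22% of all genes. Their median log2 fold change was -0.74, and that of all genes was -0.11. The fall covered every mitotic role: 4 of 4 mitotic cyclins and Cdk1, 4 of 4 genes of the spindle checkpoint and APC/C, 6 of 6 mitotic kinases and their partners and 6 of 9 centromere and spindle proteins, beside 6 of 11 replication genes. For 12 of the 43 every E11.5 control was above every E13.5 control library (4.26% of all genes), and for 22 of the 23 mitotic members every E11.5 control was above every muscle and chondroblast control library (9.6% of all genes). None of the 3 D-type cyclins fell, and of the genes around cyclin E and Cdk2 only Ccne2 did.

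The gene with the smallest p was Cdca3, a trigger of mitotic entry, at 129, 155, 138, 129 and 119.6 CPM in the E11.5 controls, 96.00 and 109 CPM in epithelium, 45.5 and 51.8 CPM in muscle and 61.00 and 56.7 CPM in chondroblasts. Every E13.5 library was below every E11.5 control (log2 fold change -1.04 ± 0.11 SE, adjusted p = 5.15e-04). Ccnb1, the cyclin whose complex with Cdk1 starts mitosis, was at 535, 575, 639, 463 and 464 CPM at E11.5, then 377 and 277 CPM in epithelium, 200.0 and 130.2 CPM in muscle and 227 and 150.4 CPM in chondroblasts. Again the groups did not overlap (log2 fold change -1.32 ± 0.16 SE, adjusted p = 0.00112), and muscle B held the least. Birc5, the survivin subunit of the chromosomal passenger complex, gave a log2 fold change of -0.77 ± 0.11 SE (adjusted p = 0.00227), and its partner Cdca8 gave a log2 fold change of -0.88 ± 0.14 SE (adjusted p = 0.00403). Plk1, the Polo kinase, gave a log2 fold change of -1.05 ± 0.16 SE (adjusted p = 0.00317), and Ube2c, the ubiquitin-conjugating enzyme of the APC/C, gave a log2 fold change of -0.74 ± 0.12 SE (adjusted p = 0.00442). On the side of DNA synthesis, Rrm2, a subunit of ribonucleotide reductase, gave a log2 fold change of -0.90 ± 0.13 SE (adjusted p = 0.00293), the helicase subunit Mcm5 gave a log2 fold change of -0.65 ± 0.10 SE (adjusted p = 0.00424) and the polymerase clamp Pcna gave a log2 fold change of -0.77 ± 0.13 SE (adjusted p = 0.00454). Top2a, the topoisomerase used as a proliferation marker, gave a log2 fold change of -0.82 ± 0.12 SE (adjusted p = 0.00269), and the remaining 18 genes that fell had a larger p.

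Mki67, the most widely used proliferation marker, gave no such difference. It was at 159, 191, 184, 171 and 170.2 CPM in the E11.5 controls, 242 and 135 CPM in epithelium, 237 and 144 CPM in muscle and 158 and 116 CPM in chondroblasts, so the stages overlapped (log2 fold change -0.066 ± 0.18 SE, adjusted p = 0.849). In each sorted population the library of the earlier date in the column names (A) was the higher one. The same order in all 3 populations was seen for 17 of the 43 drivers (39.5%) and for 16.2% of all genes, and the reverse order for 2 of 43 (4.65%) and 12.6%. Top2a was at 437, 540.5, 531, 415 and 361 CPM in the controls, 368 and 340.0 CPM in epithelium, 223 and 201 CPM in muscle and 261 and 220.1 CPM in chondroblasts, and here only epithelium A reached into the E11.5 range.

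Taken by population, against the same 5 E11.5 controls, the drivers of the cycle had the smallest median change in epithelium. There 2 of 43 were lower and 1 was higher, against 7.43% and 5.23% of all genes, at a median log2 change of -0.27 (-0.13 over all genes). The lower genes were Mcm5 (log2 fold change -0.67 ± 0.15 SE, adjusted p = 0.0175) and Rrm2 (log2 fold change -0.79 ± 0.19 SE, adjusted p = 0.0247), and the higher one was Ccnd2. In muscle 28 of 43 were lower and 0 higher, against 4.33% and 4.96% of all genes, with a median of -1.03 (-0.06 over all genes). All 6 mitotic kinases and partners, 7 of 9 centromere and spindle proteins and 7 of 11 replication genes were among them, with Cdca3 (log2 fold change -1.48 ± 0.16 SE, adjusted p = 4.23e-04) and Ube2c (log2 fold change -1.31 ± 0.18 SE, adjusted p = 0.00165) at the smallest p. Aurkb, the catalytic subunit of the chromosomal passenger complex, fell from 148, 191, 167, 160.4 and 135 CPM in the E11.5 controls to 58.8 and 26.4 CPM in muscle (log2 fold change -1.92 ± 0.31 SE, adjusted p = 0.00423). In the same ranking followed Birc5, Ccnb1, Top2a, Mcm5, Pcna, Kif20a and Plk1, with log2 fold changes between -1.71 (Ccnb1) and -0.93 (Mcm5).

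In chondroblasts 16 of 43 were lower and 0 higher, against 1.9% and 2.53% of all genes, with a median of -0.91 (-0.06 over all genes). Of these, 13 had mitotic roles and 2 replication roles. Cdca3 (log2 fold change -1.22 ± 0.16 SE, adjusted p = 0.00200) and Ccnb1 (log2 fold change -1.54 ± 0.25 SE, adjusted p = 0.00631) led. Ube2c came next (log2 fold change -1.07 ± 0.18 SE, adjusted p = 0.00757), followed by Birc5, Cdca8, Top2a, Ccna2, Plk1, Aurka and Cenpa. Ccna2, the cyclin of S phase and early mitosis, was at 315, 387, 331, 285 and 178 CPM in E11.5 controls and 101 and 137 CPM in chondroblasts, with no overlap (log2 fold change -1.35 ± 0.25 SE, adjusted p = 0.0138). Aurka, the spindle pole kinase, was at 180.3, 224, 228, 185 and 154 and at 91.7 and 58.5 CPM (log2 fold change -1.40 ± 0.28 SE, adjusted p = 0.0201). Leaving out single libraries kept the median of the 43 drivers between -1.17 and -0.98 in muscle and between -1.05 and -0.77 in chondroblasts, but moved the counts: without muscle B, 14 members passed in muscle (4.57% of all genes) in place of 29 (9.29%), and in chondroblasts 1 passed without control B (1.12%) and 9 without Wnt5a control D (2.2%), in place of 16 (4.44%). In epithelium 6 passed without epithelium A (30.6%) and 1 without epithelium B (5.18%), in place of 3 (12.7%).

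**Figure D3:**
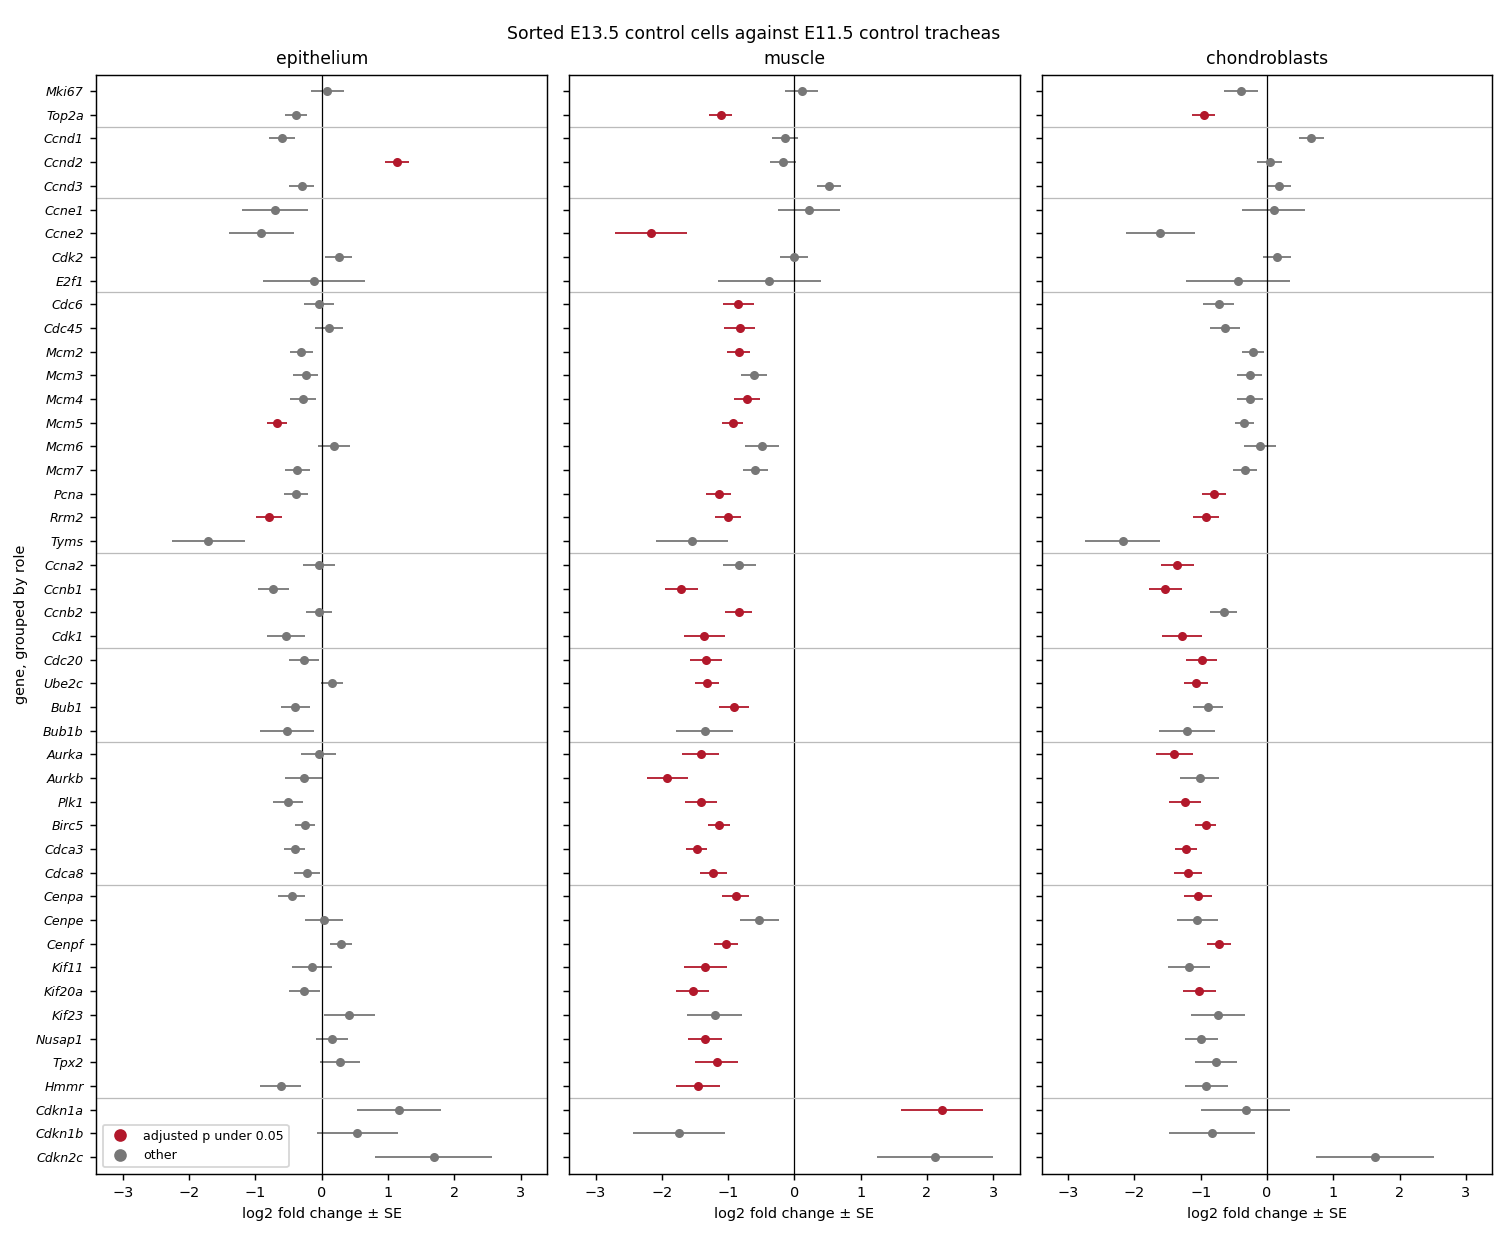
log2 fold change with its SE (horizontal axis) of each of the 46 genes, by role from top to bottom, in sorted E13.5 epithelium (left), muscle (middle) and chondroblasts (right) against the same 5 E11.5 control tracheas, with red for an adjusted p under 0.05. Red points are 2 lower drivers and 1 higher in epithelium, 28 lower drivers with Cdkn1a higher in muscle, and 16 lower in chondroblasts.

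The E11.5 tracheas were whole, with all their cell types, while the E13.5 cells had been stained and sorted, so stage, sorting, cell makeup and genetic background cannot be told apart in these comparisons. Transcripts induced by dissociation summed to 3239.7 to 12399.7 CPM in the sorted controls, above every E11.5 control, among which control B had the most of them and also the highest mitotic mean (204 CPM). Their part in the result was not tested. With Wnt5a control B, muscle A and chondroblast control A left out together, 28 members passed for the sorted cells as a whole (15.6% of all genes), and the median of the 43 drivers was -0.82.

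The other genes of the cycle were read by list, against the 9.9% lower and 4.22% higher of all genes. Of 36 further S phase genes, 14 were lower and 0 higher in the sorted cells as a whole, at a median log2 change of -0.56. The smallest p were those of Orc6, a subunit of the origin recognition complex (log2 fold change -1.18 ± 0.17 SE, adjusted p = 0.00253), of the clamp loader subunit Rfc4 (log2 fold change -0.997 ± 0.19 SE, adjusted p = 0.00836) and of Tipin (log2 fold change -0.63 ± 0.12 SE, adjusted p = 0.00849), which guards replication forks. Of 38 further G2 and M phase genes, 15 were lower and 0 higher (median -0.60), led by the Cdk-binding subunit Cks1b (log2 fold change -0.65 ± 0.09 SE, adjusted p = 0.00175), the kinetochore gene Spc25 (log2 fold change -1.20 ± 0.17 SE, adjusted p = 0.00269) and the kinesin Kif22 (log2 fold change -1.02 ± 0.16 SE, adjusted p = 0.00424). Of 13 further G1 kinases and E2F genes, 1 was lower, no more than the share of all genes. It was Skp2, which marks Cdkn1b for destruction (log2 fold change -0.47 ± 0.13 SE, adjusted p = 0.0368).

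By population, in muscle 13 of the S phase genes were lower, where 4.33% of all genes were, led by Hells (log2 fold change -1.56 ± 0.21 SE, adjusted p = 0.00158), Orc6 (log2 fold change -1.61 ± 0.25 SE, adjusted p = 0.00357) and Tipin (log2 fold change -0.92 ± 0.17 SE, adjusted p = 0.00900). Of the G2 and M phase genes 15 were lower, led by Cks1b (log2 fold change -0.98 ± 0.13 SE, adjusted p = 0.00122), Kif22 (log2 fold change -1.73 ± 0.25 SE, adjusted p = 0.00222) and Cks2 (log2 fold change -1.36 ± 0.24 SE, adjusted p = 0.00674). E2f3, another activating E2F, was lower as well (log2 fold change -1.62 ± 0.40 SE, adjusted p = 0.0314). In chondroblasts 5 S phase genes were lower, with Orc6, Gins2 and Rfc4 first, and 11 G2 and M phase genes, with Racgap1, Cks2 and Spc25 first, where 1.9% of all genes were lower. In epithelium 1 gene of each list passed, fewer than the share of all genes (5.23% higher and 7.43% lower): Dbf4, which activates the kinase that fires origins, was higher (log2 fold change 1.12 ± 0.33 SE, adjusted p = 0.0488) and Spc25 lower (log2 fold change -1.04 ± 0.25 SE, adjusted p = 0.0248). No gene of these lists was higher in muscle or chondroblasts.

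Among the E13.5 populations themselves, epithelium had the highest levels of most drivers of the cycle. Of the 43 drivers, 34 had their highest mean in epithelium (79.1%, against 37.0% of all genes) and 34 their lowest in muscle (79.1% against 30.6%). All 23 mitotic members were highest in epithelium, and for 21 of them both epithelial libraries were above all 4 muscle and chondroblast control libraries, which held for 15.2% of all genes. The replication genes were less divided, with 6 of 11 highest in epithelium, 4 in chondroblasts and 1 in muscle. Within the earlier date the median difference over the mitotic members was 0.92 log2 units against muscle and 0.66 against chondroblasts, and within the later date 1.09 and 0.89. Over all genes these medians lay between -0.10 and 0.01.

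With 2 libraries per population few single genes passed. Against muscle, 3 of the 46 members were higher in epithelium at an adjusted p under 0.05 and 0 were lower, against 1.17% and 2.41% of the 13687 genes tested. Ccnd2 gave a log2 fold change of 1.33 ± 0.21 SE (adjusted p = 0.0243), Ube2c gave a log2 fold change of 1.48 ± 0.24 SE (adjusted p = 0.0289) and Cenpf, a kinetochore protein, gave a log2 fold change of 1.34 ± 0.25 SE (adjusted p = 0.0409). Ube2c was at 249 and 348 CPM in epithelium, 118 and 95.8 CPM in muscle and 136 and 120.5 CPM in chondroblasts, and Cenpf at 149 and 122, at 51.3 and 56.7 and at 69.6 and 65.8 CPM. For both genes epithelium was above all muscle and chondroblast control libraries, and both of these chondroblast libraries were above both muscle libraries. At the unadjusted p under 0.05 and fold over 1.5 that the study applied, 22 members were higher and 1 lower, against 7.53% and 10.1% of all genes.

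Against chondroblasts, 2 members were higher in epithelium and 0 lower, against 1.02% and 1.72% of all genes. They were Ccna2 (log2 fold change 1.32 ± 0.23 SE, adjusted p = 0.0423) and Ccnd2 (log2 fold change 1.11 ± 0.20 SE, adjusted p = 0.0488). At the study's thresholds 13 were higher and 1 lower, against 6.66% and 9.09%. Ccna2 was at 298 and 289.6 CPM in epithelium. Top2a gave a log2 fold change of 0.75 ± 0.18 SE (adjusted p = 0.0918) against muscle and a log2 fold change of 0.58 ± 0.18 SE (adjusted p = 0.186) against chondroblasts, and Mki67 gave a log2 fold change of -0.0062 ± 0.38 SE (adjusted p = 0.996) and a log2 fold change of 0.49 ± 0.38 SE (adjusted p = 0.598). These calls were sensitive to the choice of libraries: without epithelium B, chondroblast control A or chondroblast control B no member passed in either comparison, while 1.79 to 2.21% of all genes passed against muscle and 0.139 to 1.35% against chondroblasts. Without muscle A 0 passed against muscle (1.14% of all genes) and 1 against chondroblasts (1.72%). Without muscle B 1 passed in each (1.2% and 1.76%), and without epithelium A 3 and 1 passed (8.62% and 7.48%). With a block for the date, 2 passed against muscle (2.91%) and 0 against chondroblasts (2.18%). Among further genes of the cycle, Hells, a chromatin remodeller of S phase, was higher in epithelium than in muscle (log2 fold change 1.80 ± 0.33 SE, adjusted p = 0.0420), and Racgap1, a gene of cytokinesis, higher than in chondroblasts (log2 fold change 1.15 ± 0.20 SE, adjusted p = 0.0429). Plk2, a kinase on the p53 target list, was lower in epithelium than in muscle (log2 fold change -1.94 ± 0.27 SE, adjusted p = 0.0174) and than in chondroblasts (log2 fold change -1.86 ± 0.27 SE, adjusted p = 0.0236).

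Between muscle and chondroblasts, edgeR called 0 members (0.132% of all genes were higher and 0.0% lower), DESeq2 called 1 (Mcm5, against 1.86% of all genes) and 3 had an unadjusted p under 0.05 (5.79% of all genes). These 3 were Mcm5, at 206 and 228 CPM in muscle and 327 and 336 CPM in chondroblasts (log2 fold change -0.59 ± 0.17 SE, adjusted p = 0.640), Ccnd1 (log2 fold change -0.81 ± 0.28 SE, adjusted p = 0.819) and Mcm2, another helicase subunit, at 179 and 235 and 311 and 338 CPM (log2 fold change -0.63 ± 0.22 SE, adjusted p = 0.823). On the upper side the smallest p were those of Tyms (log2 fold change 0.63 ± 0.27 SE, adjusted p = 0.860), Cdkn1a (log2 fold change 2.55 ± 1.10 SE, adjusted p = 0.873) and Ccna2 (log2 fold change 0.52 ± 0.23 SE, adjusted p = 0.895). The proliferation markers gave a log2 fold change of 0.50 ± 0.38 SE (Mki67, adjusted p = 1.00) and a log2 fold change of -0.16 ± 0.18 SE (Top2a, adjusted p = 1.00). Muscle lay below chondroblasts in 35 of 43 drivers (49.6% of all genes lay above), at a median log2 change of -0.19. The groups did not overlap for 15 lower and 3 higher genes, against 21.6% and 18.7% of all genes.

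The D-type cyclins, which couple growth signals to the cycle, each had their highest mean in a different E13.5 population. Ccnd2 was at 1337 and 1427 CPM in epithelium, 454 and 654 CPM in muscle, 693 and 611 CPM in chondroblasts and 581, 838, 583, 593 and 513 CPM in the E11.5 controls. Both epithelial libraries were above all others (log2 fold change 1.13 ± 0.18 SE, adjusted p = 0.00328 against E11.5). Ccnd1 ran the other way, at 134 and 121 CPM in epithelium, 204 and 141 CPM in muscle, 367 and 248 CPM in chondroblasts and 216, 189, 188, 176 and 179 CPM at E11.5. Epithelium was the lowest and chondroblasts the highest, without overlap between them, though the difference did not pass (log2 fold change -1.24 ± 0.28 SE, adjusted p = 0.0869). Ccnd3 was at 834 and 640.3 CPM in muscle, 558 and 623 CPM in chondroblasts, 356 and 484 CPM in epithelium and 544, 551, 536, 546 and 379 CPM at E11.5. Muscle was above epithelium in both libraries (epithelium against muscle: log2 fold change -0.81 ± 0.22 SE, adjusted p = 0.118) and above E11.5 (muscle against E11.5: log2 fold change 0.52 ± 0.18 SE, adjusted p = 0.0911), and neither passed. Against chondroblasts, Ccnd3 gave a log2 fold change of -0.47 ± 0.22 SE (adjusted p = 0.365) in epithelium and a log2 fold change of 0.34 ± 0.22 SE (adjusted p = 1.00) in muscle.

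Around cyclin E and Cdk2, Ccne1 was at 36.1, 86.1, 57.6, 57.5 and 22.1 CPM in E11.5 controls, 32.7 and 31.5 CPM in epithelium, 67.97 and 52.6 CPM in muscle and 28.1 and 84.9 CPM in chondroblasts, a spread within groups as wide as that between them. Ccne2 was at 84.5, 70.5, 85.2, 91.8 and 167 CPM in the controls and at 35.7 and 9.72 CPM in muscle (log2 fold change -2.16 ± 0.54 SE, adjusted p = 0.0314). Cdc6, which loads the helicase, was at 70.6, 104, 103, 75.8 and 61.3 CPM at E11.5, 68.5 and 95.2 CPM in epithelium, 47.8 and 44.9 CPM in muscle and 51.6 and 50.4 CPM in chondroblasts, so epithelium lay inside the E11.5 range and mesenchyme under it. Cdc20, the activator of the APC/C, was at 336, 448, 395, 356 and 334 CPM at E11.5, 318 and 311 CPM in epithelium, 196 and 102 CPM in muscle and 203 and 182 CPM in chondroblasts. Cenpa, the histone of the centromere, was at 237, 255, 216, 250.4 and 213 CPM, then 162 and 187, then 162 and 93.9 and 124 and 109 CPM in the same order. For Cdc20 and Cenpa all E13.5 control libraries lay below all E11.5 controls, with epithelium the closest for Cdc20 and level with muscle A in 1 library for Cenpa.

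Among the 3 inhibitors 1 call was made in these comparisons, for Cdkn1a in muscle. Cdkn1b, which holds Cdk2 in check in resting cells, was at 7.85, 6.12, 4.55, 8.37 and 4.48 CPM in E11.5 controls, 10.7 and 7.78 CPM in epithelium, 0.889 and 2.90 CPM in muscle and 3.17 and 4.04 CPM in chondroblasts. It was lowest in muscle, without overlap with E11.5, but in edgeR's fits of each comparison none between control groups passed. Against E11.5 it gave a log2 fold change of -1.74 ± 0.69 SE (adjusted p = 0.141) in muscle, a log2 fold change of 0.54 ± 0.61 SE (adjusted p = 0.594) in epithelium and a log2 fold change of -0.83 ± 0.65 SE (adjusted p = 0.536) in chondroblasts. Between epithelium and muscle it gave a log2 fold change of 2.29 ± 1.22 SE (adjusted p = 0.383). It did pass as lower in muscle than at E11.5 with DESeq2 (adjusted p = 0.0223) and in 1 edgeR fit over 18 libraries (0.0476), and as higher in epithelium than in muscle in the latter (0.0200). Cdkn2c, an inhibitor of Cdk4 and Cdk6, was at 0.291, 1.38, 0.588, 1.41 and 0.434 CPM in E11.5 controls, close to the level of 3 counts, so that it passed the filter only through the sorted cells, and at 3.21 and 2.22 CPM in epithelium, 4.92 and 2.34 CPM in muscle and 0.920 and 4.33 CPM in chondroblasts. Against E11.5 it gave a log2 fold change of 1.69 ± 0.88 SE (adjusted p = 0.230) in epithelium, a log2 fold change of 2.12 ± 0.88 SE (adjusted p = 0.155) in muscle and a log2 fold change of 1.63 ± 0.89 SE (adjusted p = 0.343) in chondroblasts, and none passed. In muscle against E11.5 an unadjusted p under 0.05 was reached by Cdkn1a and Cdkn2c as higher and by Cdkn1b as lower, and by 25.9% of all genes. For Cdkn2c nothing is read from this p, since only the sorted cells carried it past the filter.

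Cdkn1a, which arrests cells after DNA damage and on terminal differentiation, was at 4.36, 6.53, 4.07, 6.36 and 4.92 CPM in E11.5 controls, 17.3 and 6.67 CPM in epithelium, 42.6 and 7.01 CPM in muscle and 3.58 and 5.01 CPM in chondroblasts. Its difference between muscle and E11.5 passed (log2 fold change 2.23 ± 0.62 SE, adjusted p = 0.0470) and rested on muscle A, the library with skeletal muscle transcripts: without muscle A the log2 fold change was 0.38 (adjusted p = 0.772). Myog, the factor of skeletal muscle differentiation, was at 452 CPM in muscle A and 33.4 CPM in muscle B. Cdkn1a gave a log2 fold change of 1.17 ± 0.63 SE (adjusted p = 0.248) in epithelium and a log2 fold change of -0.32 ± 0.68 SE (adjusted p = 0.852) in chondroblasts. Epithelium against muscle and against chondroblasts gave a log2 fold change of -1.04 ± 1.05 SE (adjusted p = 0.662) and a log2 fold change of 1.51 ± 1.07 SE (adjusted p = 0.562). Among other inhibitors and pocket proteins (11 of 12 tested), 3 were higher in the sorted cells than at E11.5 and 0 lower, against 4.22% and 9.9% of all genes. They were Rbl2, a relative of the retinoblastoma protein (log2 fold change 1.14 ± 0.27 SE, adjusted p = 0.0210), and the antiproliferative genes Btg2 (log2 fold change 2.32 ± 0.58 SE, adjusted p = 0.0248) and Btg1 (log2 fold change 1.17 ± 0.29 SE, adjusted p = 0.0252). Btg2 was at 59.04, 217, 50.8, 38.1 and 42.96 CPM at E11.5 and at 1161 and 799.6 CPM in epithelium. Within E11.5 it was highest in control B and mutant D, the libraries with the most dissociation transcripts, whose part in this result was not tested. By population, Btg2 (log2 fold change 3.58 ± 0.70 SE, adjusted p = 0.00926), Rbl1 (log2 fold change 0.86 ± 0.22 SE, adjusted p = 0.0282) and Rbl2 (log2 fold change 1.30 ± 0.35 SE, adjusted p = 0.0349) were higher in epithelium (5.23% of all genes) and Btg1 in muscle (log2 fold change 1.70 ± 0.37 SE, adjusted p = 0.0188), where 4.96% of all genes were higher. Of the p53 targets, Bbc3, a trigger of apoptosis, was higher in epithelium (log2 fold change 2.49 ± 0.67 SE, adjusted p = 0.0356) and Plk2 lower (log2 fold change -1.29 ± 0.26 SE, adjusted p = 0.0111), a share near that of all genes in either direction, and none passed in muscle or chondroblasts.

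**Figure D4:**
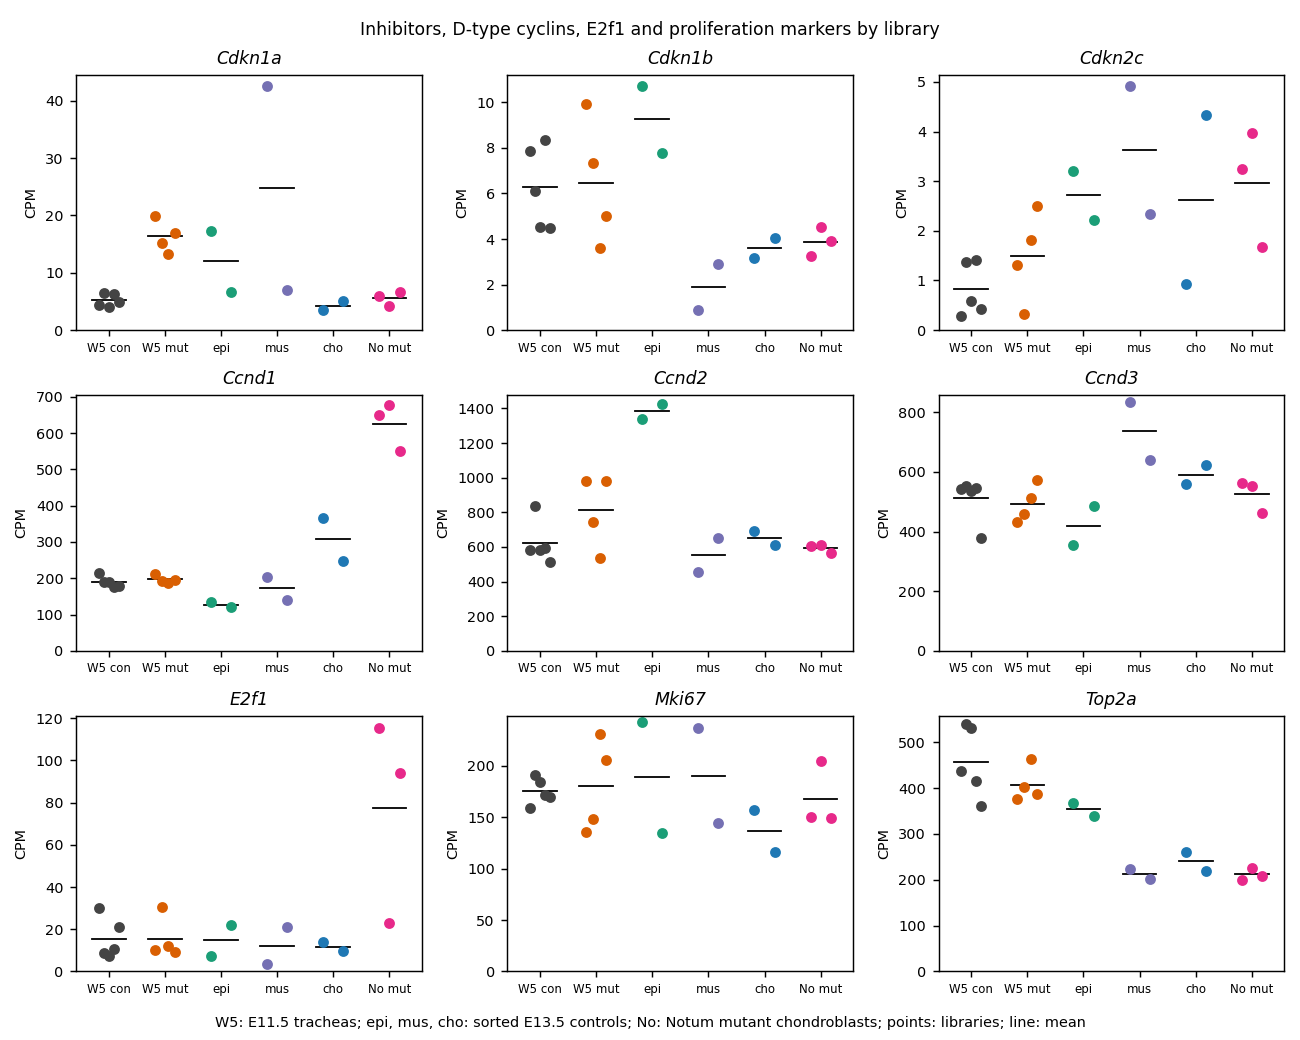
Level in CPM of the 3 inhibitors, the 3 D-type cyclins, E2f1, Mki67 and Top2a (1 panel each) in the 6 groups, with 1 point per library and a line at the mean. Cdkn1a is at 13.2 CPM or more in all 4 Wnt5a mutants and at most 6.53 CPM in their controls, and Ccnd1 reaches 677 CPM in the Notum mutants.

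In the Wnt5a mutant tracheas at E11.5 no driver of the cycle passed as changed. edgeR called 0 of the 46 members higher and 0 lower at an adjusted p under 0.05, against 0.0136% and 0.0% of the 14663 genes tested. DESeq2 called 1 (0.273% of all genes), limma-voom 0 (0.0136%), and 3 members had an unadjusted p under 0.05 (4.58% of all genes). Of the 43 drivers 38 lay below 0, while 46.5% of all genes lay above it, but the distance was small, at a median log2 change of -0.14 (-0.02 over all genes). None had mutant and control libraries that did not overlap, against 0.436% of all genes with all mutants lower. The mitotic mean was 188, 154, 162 and 171 CPM in the mutants, against 158 to 204 CPM in controls. Mki67 gave a log2 fold change of 0.0078 ± 0.17 SE (adjusted p = 0.9996) and Top2a a log2 fold change of -0.19 ± 0.14 SE (adjusted p = 0.9996). The D-type cyclins gave log2 fold changes of 0.018 ± 0.11 SE (Ccnd1), 0.35 ± 0.19 SE (Ccnd2) and -0.077 ± 0.14 SE (Ccnd3), each with an adjusted p of 0.9996. These tracheas were whole, and their markers varied. The epithelial list summed to 306 to 715 CPM in mutants and 244 to 402 CPM in controls, with 5 of 6 genes above 0 (median log2 change 0.39). In the erythroid list 0 of 7 genes were above 0 (median log2 change -0.44). The part of cell makeup in these results was not tested.

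Cdkn1a was the member that stood apart. It was at 19.97, 15.2, 13.2 and 17.01 CPM in the 4 mutants and at 4.36, 6.53, 4.07, 6.36 and 4.92 CPM in the 5 controls, so every mutant was above every control, which held for 0.825% of all genes. The fold was 3.04 (log2 fold change 1.60 ± 0.22 SE), and Cdkn1a ranked 4 of all genes by p but missed the threshold after adjustment (edgeR adjusted p = 0.0612). The call depended on the procedure: DESeq2 gave an adjusted p of 1.02e-07, edgeR with library size as its only scaling gave 0.0384 and edgeR without a filter 0.0310. A block for the number in the column names gave 0.0996, leaving out single libraries 0.0884 to 0.260, and 1 fit over 18 libraries 0.9999. Over all alternatives run the log2 fold change was between 1.49 and 1.73. Of the 2 table entries for Cdkn1a the second held most counts in 8 of the 9 libraries, at 13.2 to 19.5 CPM in mutants and 1.83 to 6.36 CPM in controls. In control E it held the smaller part, 1.83 CPM beside 3.09 CPM for the first.

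The other inhibitors gave no such difference. Cdkn1b was at 9.93, 7.32, 3.59 and 5.00 CPM in the mutants (log2 fold change 0.0055 ± 0.33 SE, adjusted p = 0.9998) and Cdkn2c at 1.31, 0.330, 1.82 and 2.50 CPM (log2 fold change 0.80 ± 0.62 SE, adjusted p = 0.9996), and both overlapped with the controls. Cdkn2c passed the filter only through the mutants, of which 3 of 4 were above 1 CPM. Of the 13 p53 target genes other than Cdkn1a, 0 passed, at a median log2 change of -0.007 and 6 above 0. The 2 genes that edgeR called in this comparison were both factors of skeletal muscle: Myog, at 85.3, 60.8, 62.4 and 84.1 CPM in mutants and 20.2, 13.7, 12.8, 13.3 and 6.65 CPM in controls (log2 fold change 2.42 ± 0.25 SE, adjusted p = 0.0133), and Myod1 (log2 fold change 1.91 ± 0.22 SE, adjusted p = 0.0188). The mutants thus had both more Cdkn1a and more Myog than every control, as did muscle A among the sorted cells. Epithelium A, however, had 17.3 CPM of Cdkn1a with 4.69 CPM of Myog, and muscle B had 7.01 CPM of Cdkn1a with 33.4 CPM of Myog. Whether the levels of these genes are tied was not tested.

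At the study's thresholds 1 driver was lower in the Wnt5a mutants, Tyms, which makes thymidylate for DNA synthesis, and Cdkn1a was higher. Of all genes 2.53% were lower and 1.19% higher by these thresholds. Tyms was at 401, 349, 332 and 357 CPM in mutants and at 454, 379, 351, 739.5 and 1360.1 CPM in controls (log2 fold change -0.94 ± 0.39 SE, adjusted p = 0.9996). Controls D and E were the highest, and without both the log2 fold change was -0.12, and with a block for the column number it was -0.36, with 1 member at the study's thresholds in place of 2. They were also the E11.5 libraries with the most erythroid transcripts, 17611 and 20840.2 CPM against 3214 to 11898 CPM in the others, whose part in the result was not tested. Next by p were Hmmr, a spindle protein (log2 fold change -0.34 ± 0.13 SE, adjusted p = 0.9996), and Nusap1, which bundles spindle microtubules (log2 fold change -0.30 ± 0.15 SE, adjusted p = 0.9996). No gene of the further S phase list (median -0.12), of the G2 and M phase list (-0.14), of the G1 kinases and E2F genes (-0.09) or of the other inhibitors (0.11) passed.

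In Notum mutant chondroblasts at E13.5 the mutants lay between the controls in their mitotic mean, and the largest differences of the list were in 2 G1 regulators, Ccnd1 and E2f1. edgeR called 0 members higher and 0 lower, against 0.0% and 0.0% of the 14120 genes tested. DESeq2 called 3 (3.73% of all genes), limma-voom 0 (0.0354%), and 7 members had an unadjusted p under 0.05 (12.5% of all genes). The mitotic mean was 80.9, 93.8 and 86.6 CPM in the mutants and 102 and 77.3 CPM in the controls, so all 3 mutants lay between the controls. In their column names 2 of these 3 mutants share a number, so they may not be independent. All mutants were of the later date and control A was of the earlier one, so the date and the genotype overlap in part. The labels list 2 chondroblast controls as Bmp4 f/f and 1 as Notum 300/300. At least 1 of the 2 controls used was therefore Bmp4 f/f, and genetic background and Notum genotype cannot be told apart. Markers of other cell types differed in level between the groups. The summed level of the erythroid list was 6189.6 to 8369 CPM in the mutants and 5369.5 and 66100.1 CPM in the controls, with 0 of 7 tested genes above 0 (median log2 change -2.29), and control A held the most. The neural and glial list was at 218 to 291 CPM in the mutants and 146 and 216 CPM in the controls, with 5 of 6 tested genes above 0 (median log2 change 0.91), the blood immune list at 227 to 387 CPM in the mutants and 129 and 205 CPM in the controls, with 5 of 5 tested genes above 0 (median log2 change 0.40) and the smooth muscle list at 69.3 to 97.9 CPM in the mutants and 55.3 and 59.7 CPM in the controls, with 5 of 6 tested genes above 0 (median log2 change 0.80). In these 3 lists every mutant was above both controls. The same held for the cartilage list, at 3236 to 4121 CPM in the mutants and 2544 and 2777 CPM in the controls. Of its genes, 5 of 6 tested were above 0 (median log2 change 0.44). The endothelial list was at 20.9 to 43.8 CPM in the mutants and 30.7 and 72.2 CPM in the controls, with 0 of 5 tested genes above 0 (median log2 change -0.55). No gene of these lists was listed at 0 in both groups, none passed in edgeR, and their part in the differences of the 46 members was not tested.

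Ccnd1, the cyclin that opens G1 and a known target of canonical Wnt signalling, was at 651, 677 and 549 CPM in the mutants and 367 and 248 CPM in the controls. All 3 mutants were above both controls and above every other library (17.2% of all genes had mutants above controls without overlap). The fold was 2.05 (log2 fold change 1.04 ± 0.18 SE), and it missed the threshold (edgeR adjusted p = 0.204). DESeq2 gave an adjusted p of 1.94e-05, and edgeR gave 0.0484 without a filter (0.198% of all genes passed). Within the later date, with control B as the lone control, the log2 fold change was 1.31. The other D-type cyclins gave a log2 fold change of -0.13 ± 0.09 SE (Ccnd2, adjusted p = 0.605) and a log2 fold change of -0.16 ± 0.12 SE (Ccnd3, adjusted p = 0.626).

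E2f1, the transcription factor that switches on genes of S phase, was at 115, 22.8 and 93.9 CPM in the mutants and 13.7 and 9.86 CPM in the controls. Mutants A and C were far above all other libraries of the series and mutant B was within the range of the others (log2 fold change 2.72 ± 0.69 SE, adjusted p = 0.270, DESeq2 adjusted p = 4.62e-04). The table has 2 entries for E2f1, and both were higher in mutants A and C, at 85.1 and 68.8 CPM for the first and 30.4 and 25.1 CPM for the second. Of the 11 replication members 10 lay below 0, while 51.9% of all genes lay above it, and 5 had all mutants below both controls, against 16.4% of all genes, at a median log2 change of -0.18 (0.02 over all genes). Over all 43 drivers 30 lay below 0 (median -0.09). Among them 9 had all mutants below both controls and 4 had all above, against 16.4% and 17.2% of all genes. For the 23 mitotic members these counts were 1 and 2.

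The smallest p below 0 were those of Cdk2, at 88.3, 91.9 and 101 CPM in mutants and 126 and 141 CPM in controls (log2 fold change -0.50 ± 0.13 SE, adjusted p = 0.270), of Mcm5, at 245, 275 and 244 and 327 and 336 CPM (log2 fold change -0.37 ± 0.11 SE, adjusted p = 0.295), and of Cdc45, which joins the active helicase, at 34.9, 36.03 and 34.3 and 53.9 and 47.2 CPM (log2 fold change -0.52 ± 0.16 SE, adjusted p = 0.315). In each the mutants lay under both controls. Cdk2 passed with DESeq2 (adjusted p = 0.0493), which made 47 false calls beside 160 true ones in simulated counts of this design. With a block for the date, or without control A, control B is the lone control. In these fits 18.4% and 17.5% of all genes passed, against 3 of the 46 members in each (Ccnd1, Cdk2 and Cenpe, a kinesin of the kinetochore named after its values were seen), and no call was read from them. Above 0 the third smallest p was that of Cdca3 (log2 fold change 0.30 ± 0.18 SE, adjusted p = 0.538). Ccne2 gave a log2 fold change of -0.65 ± 0.24 SE (adjusted p = 0.355), Mki67 a log2 fold change of 0.31 ± 0.20 SE (adjusted p = 0.552) and Top2a a log2 fold change of -0.17 ± 0.12 SE (adjusted p = 0.575). At the study's thresholds Ccnd1 and E2f1 were higher and Ccne2 was lower, 2 and 1 of 46 members, against 5.51% and 2.9% of all genes. The inhibitors overlapped with the controls: Cdkn1a was at 5.94, 4.22 and 6.66 CPM (log2 fold change 0.39 ± 0.49 SE, adjusted p = 0.770), Cdkn1b at 3.25, 4.52 and 3.90 CPM (log2 fold change 0.12 ± 0.53 SE, adjusted p = 0.946) and Cdkn2c at 3.25, 3.98 and 1.68 CPM (log2 fold change 0.18 ± 0.85 SE, adjusted p = 0.950).

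**Figure D5:**
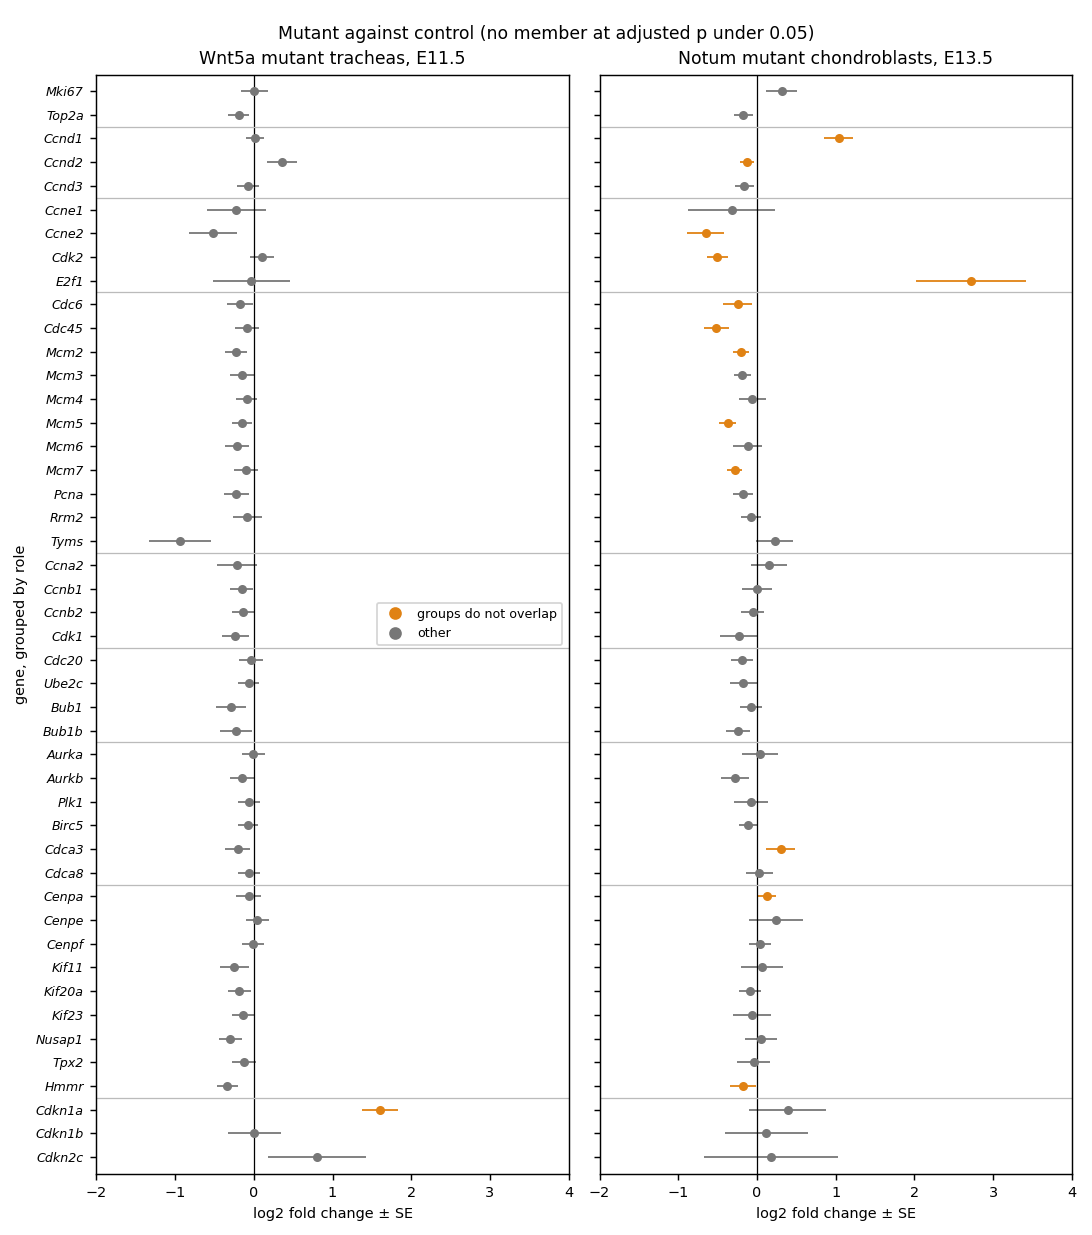
log2 fold change with its SE (horizontal axis) of the 46 genes, by role, in Wnt5a mutant tracheas against 5 controls (left) and in Notum mutant chondroblasts against 2 controls (right), with orange where no mutant library overlaps with a control library. On the left Cdkn1a alone is orange, at 1.60, and on the right E2f1 and Ccnd1 lie farthest from 0, at 2.72 and 1.04.

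Of the further lists in the Notum mutants, 31 of 36 S phase genes lay below 0 (median -0.15) and 24 of 38 G2 and M phase genes (-0.06), and no gene of these or of the inhibitor, G1 and p53 target lists passed.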

How the data were processed

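RNA was sequenced from pools of 5 mouse tracheas or from cells sorted out of them, after poly(A)-primed amplification (SMART-Seq v4) and Nextera XT library preparation, per the labels. The authors deposited 1 table of estimated counts for 47248 entries, not normalised and not whole (56.0% of values fractional). The submitters' processing notes name mm10, Partek and limma, and the counting tool is not given in the sources used here. Groups came from the sample labels. Of 22 columns, 18 were matched to a group and 4 fitted none of the labels and stayed out. Estimated counts were summed per symbol (26202 symbols, with several entries for 20 of the 46 members) and rounded.

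Genes with at least 1 CPM in over 50% of the libraries of a group were tested with edgeR 4.0.16 in R 4.3.3 (TMM scaling, quasi-likelihood test, two-sided, Benjamini-Hochberg adjustment over all genes of the fit). All 46 members passed this filter in every comparison. The study applied DESeq2 with unadjusted p under 0.05 and a fold over 1.5, and these thresholds were applied here to edgeR's values without its FPKM filter. The SE was derived from edgeR's F, as the absolute log2 fold change over its root. The mutant comparisons were each fitted on their own groups, the comparisons between E13.5 populations on the 6 control libraries, and those with E11.5 on these and the 5 E11.5 controls. DESeq2 1.42.0, limma-voom 3.58.1, other scalings and filters, replicate blocks and the omission of libraries were run as alternatives. The members and gene lists were chosen with earlier results of these data known. By the rule for names, the inhibitors, Mki67, Top2a and the D-type cyclins were named in every comparison, other members where they passed (the 10 with the smallest p at most) or, where none did, up to 3 per direction, and 1 lead member per further role by library. Myog and Myod1 lie outside the rule and were named after their values were seen.

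E11.5 controls and mutants share numbers in their column names, which may mark pairs. Within the 4 pairs the correlation of deviations from the group means was 0.13 to 0.62. The highest was that of control B with mutant D, the libraries with the most dissociation transcripts. The main tests did not use these numbers, and a block for them was run as an alternative only. Some Notum mutant columns also share a number, which may mark a common origin, and no fit used it. For the dates at E13.5 the correlations of deviations were -0.005 to 0.12. The paper describes pooling E13.5 tracheas by litter before sorting, so populations of the same date may come from a shared pool. The main tests did not pair them. Nothing in the labels ties the replicates to separate litters, so p-values measure the spread between these libraries. The scripts were first tested on simulated counts with 200 genes changed 4-fold. In epithelium against muscle edgeR recovered 14 with 3 false calls, and DESeq2 106 with 116. In the Wnt5a design edgeR recovered 180 with 9 false calls and DESeq2 192 with 42. In the Notum design these were 129 with 6 and 160 with 47, and for the sorted cells against E11.5 133 with 8 and 161 with 64. DESeq2 thus made more false calls than edgeR in every design, and genes called by DESeq2 alone are to be read with that limit.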

Additional observations from a re-analysis of the deposited data

Results flagged for a closer look

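Of 92 sets of values tested (each member in the E11.5 controls and in the Wnt5a mutants), 7 held a library far from the others of its group by Dixon's ratio, which chance does in about 5% of them. In Wnt5a control B, Ccnd2 was at 838 CPM against 513 to 593 CPM in the other controls. In control E, the shallowest library, Ccnd3 was at 379 CPM against 536 to 551 CPM in the other controls and Ccne2 was at 167 CPM against 70.5 to 91.8 CPM. In mutant B, E2f1 was at 30.7 CPM against 9.36 to 12.1 CPM in the other mutants, Ccna2 at 137 CPM against 295 to 309 CPM and Cenpe, a kinesin of the kinetochore, at 89.04 CPM against 118.8 to 119.2 CPM. In mutant A, Ccnb2, the second B-type cyclin, was at 206 CPM against 143 to 148 CPM in the other mutants. No cause was tested for these values.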

How the results depend on the processing

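Of the main counts and medians recomputed under alternatives, 277 stayed the same and 56 moved. A count stayed the same if it equalled the main count or was within 1.5 times of it, with both directions counted together. A median stayed the same if it shifted by less than the SD between libraries within groups, whatever its sign. The other values were those of single genes and the counts at the study's thresholds in comparisons between control groups. Of these, 2533 stayed the same and 9 counts moved, while of the single genes 209 lost and 38 gained a call and 50 changed sign. Single-gene values without a test or an adjusted p were compared by sign only. Percentages are the share of all genes tested that passed in the same fit. In the Wnt5a comparison, 0 members passed (0.0136%), and 1 (0.273%) with DESeq2, 1 (0.0341%) with library size only and 1 (0.0374%) with no filter. In the Wnt5a comparison, 2 members passed the study's thresholds (3.72%), and 1 (2.09%) with limma-voom, 1 (2.82%) with a replicate block by column number and 1 (1.88%) without Wnt5a controls D and E. In the Notum comparison, 0 members passed (0.0%), and 3 (3.73%) with DESeq2, 1 (0.198%) with no filter and 3 (18.4%) with a block by date. In epithelium against muscle, 3 members passed (3.58%), and 17 (13.3%) with DESeq2, 15 (8.05%) with no filter, 5 (5.74%) with 10 counts in every library, 5 (4.58%) with limma-voom and 23 (23.3%) with 1 fit over 18 libraries. In epithelium against chondroblasts, 2 members passed (2.74%), and 10 (11.4%) with DESeq2, 9 (7.27%) with no filter, 4 (4.86%) with 10 counts in every library, 4 (3.53%) with limma-voom, 18 (19.3%) with 1 fit over 18 libraries and 0 (2.18%) with a block by date. In muscle against chondroblasts, 0 members passed (0.132%), and 1 (1.86%) with DESeq2 and 2 (3.47%) with 1 fit over 18 libraries. In epithelium against E11.5, 3 members passed (12.7%), and 7 (23.8%) with DESeq2 and 6 (23.3%) with 1 fit over 18 libraries. In chondroblasts against E11.5, 16 members passed (4.44%), and 27 (12.5%) with DESeq2, 28 (10.3%) with 1 fit over 18 libraries and 10 (3.74%) without Wnt5a control B, muscle A and chondroblast control A. The replicate block by column number, run as an alternative for a possible pairing, and the block by date changed no other count by over 1.5 times. Leaving out single libraries gave counts of 0 (0.0 to 0.0203% of all genes, 1 to 2 at the study's thresholds, median -0.16 to -0.076) in the Wnt5a comparison, 0 to 3 (0.0 to 17.5% of all genes, 2 to 5 at the study's thresholds, median -0.25 to -0.024) in the Notum comparison, 0 to 3 (1.14 to 8.62% of all genes, 15 to 24 at the study's thresholds, median 0.67 to 1.000) in epithelium against muscle, 0 to 1 (0.139 to 7.48% of all genes, 5 to 18 at the study's thresholds, median 0.49 to 0.81) in epithelium against chondroblasts, 0 (0.0141 to 0.152% of all genes, 2 to 7 at the study's thresholds, median -0.32 to -0.080) in muscle against chondroblasts, 21 to 29 (6.31 to 30.3% of all genes, 24 to 29 at the study's thresholds, median -0.80 to -0.67) in the sorted cells against E11.5, 1 to 6 (5.18 to 30.6% of all genes, 4 to 12 at the study's thresholds, median -0.36 to -0.23) in epithelium against E11.5, 14 to 29 (4.57 to 16.1% of all genes, 30 to 37 at the study's thresholds, median -1.17 to -0.98) in muscle against E11.5 and 1 to 20 (1.12 to 7.46% of all genes, 20 to 31 at the study's thresholds, median -1.05 to -0.77) in chondroblasts against E11.5. Log2 fold changes of opposite sign were Cdkn1b -0.064 with limma-voom in the Wnt5a comparison, Cdkn1b -0.13 with a replicate block by column number in the Wnt5a comparison, Mki67 -0.024 with limma-voom in the Wnt5a comparison, Mki67 -0.0092 with a replicate block by column number in the Wnt5a comparison, Mki67 -0.030 without Wnt5a control B and mutant D in the Wnt5a comparison, Cdkn1b -0.064 with a block by date in the Notum comparison, Cdkn1b -0.085 within the later date in the Notum comparison, Cdkn2c -0.56 with a block by date in the Notum comparison, Cdkn2c -0.63 within the later date in the Notum comparison, Mki67 0.051 with library size only in epithelium against muscle, Mki67 0.014 with limma-voom in epithelium against muscle, Mki67 -0.30 without Wnt5a control B, muscle A and chondroblast control A in muscle against E11.5, Ccnd2 0.15 without Wnt5a control B, muscle A and chondroblast control A in muscle against E11.5 and Ccnd2 -0.027 with library size only in chondroblasts against E11.5. Across single libraries left out, values that crossed 0 ranged as follows: Cdkn1b -0.28 to 0.22 in the Wnt5a comparison, Mki67 -0.13 to 0.12 in the Wnt5a comparison, Ccnd1 -0.022 to 0.057 in the Wnt5a comparison, Cdkn1b -0.057 to 0.30 in the Notum comparison, Cdkn2c -0.55 to 1.69 in the Notum comparison, Cdkn1a -1.91 to 0.80 in epithelium against muscle, Cdkn2c -0.85 to 0.24 in epithelium against muscle, Mki67 -0.51 to 0.41 in epithelium against muscle, Cdkn2c -0.64 to 1.60 in epithelium against chondroblasts, Mki67 -0.012 to 0.87 in epithelium against chondroblasts, Cdkn2c -0.24 to 2.01 in muscle against chondroblasts, Ccnd2 -0.50 to 0.019 in muscle against chondroblasts, Mki67 -0.23 to 0.049 in the sorted cells against E11.5, Ccnd1 -0.14 to 0.055 in the sorted cells against E11.5, Mki67 -0.41 to 0.43 in epithelium against E11.5, Mki67 -0.32 to 0.41 in muscle against E11.5, Ccnd1 -0.47 to 0.079 in muscle against E11.5, Ccnd2 -0.48 to 0.038 in muscle against E11.5 and Ccnd2 -0.077 to 0.15 in chondroblasts against E11.5. The omissions of several libraries at once were chosen after seeing the data. The cause of these shifts was not tested. Cdkn1b and Cdkn2c were at few counts, and Cdkn2c passed in none of the fits run.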
